A study of Homo sapiens with 36 samples.

Results

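The 10 genes described here carry interleukin-1 (IL-1) and tumor necrosis factor (TNF) signals, and they were followed through 36 RNA-seq libraries of human prostate cancer (PCa) cell lines. They were chosen by name: the ligands IL1A, IL1B and TNF, the antagonist IL1RN, the receptors IL1R1, IL1RAP, IL1R2, TNFRSF1A and TNFRSF1B, and the adaptor MYD88. All 10 were found among the 27852 genes with a symbol in the table. C4-2 and C4-2B, related lines of the LNCaP lineage, are labelled osteoblastic (BPCa), and DU145 and 22Rv1 are labelled osteolytic (LPCa). Each line was grown alone (mono-culture, n = 3), beside MG63 cells (n = 2), alone with the osteoclast differentiation factor RANKL at 50 ng/mL (n = 2), and beside RAW264.7 cells with the same RANKL (n = 2), and RNA was taken from the cancer cells on day 5. MG63 cells come from a human osteosarcoma and served as osteoblast-like cells, and RAW264.7 cells are mouse macrophages able to become osteoclast-like. Both were separated from the cancer cells by a filter, so that soluble factors and small vesicles could pass. The labels give no genetic change in any group. Each line stands for 1 tumor, which C4-2 and C4-2B share, so the BPCa lines are not 2 independent tumors. The MG63 comparison asked which cancer-cell genes respond to an osteoblast-like neighbor, and the RAW264.7 comparison asked the same for a pre-osteoclast.

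IL-1α and IL-1β bind the receptor IL1R1, which then recruits IL1RAP, and the adaptor MYD88 passes the signal to IRAK kinases and on to NF-κB. The system holds its own brakes: IL1RN encodes an antagonist that occupies IL1R1 without signaling, and IL1R2 is a decoy receptor. TNF acts through TNFRSF1A, which most cells carry, and TNFRSF1B, which is more restricted, and it also leads to NF-κB. In bone, both cytokines are known to promote osteoclast formation and to induce chemokines and acute phase genes in neighboring cells.

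Mono-cultures without RANKL had library totals between 23932472 and 36719047 estimated counts, and the remaining cultures had totals between 9593426 and 15418211, so depth differed by culture. Levels are given as CPM, the estimated counts of a gene rescaled to a library total of 1000000. A library with 0 counts allows up to 3 counts, which is 0.0817 CPM at the largest depth and 0.313 CPM at the smallest, and this covers counting error only. The epithelial markers (4 of 4 found) summed to between 672 and 1962 CPM in every library. In each of the 4 BPCa libraries from MG63 co-culture, the same 6 of 10 mesenchymal markers did not exceed 3 counts. The sum of the 10 was 4.45 to 7.98 CPM there against 5.07 to 6.76 CPM in BPCa mono-cultures. COL1A1 was the largest part of these sums, so they say little of the other markers. With MG63 cells COL1A1 was lower in C4-2B, at 2.438 to 3.72 CPM against 4.181 to 4.645 CPM. FAP was higher in C4-2, at 0.347 to 0.713 CPM against 0.078 to 0.261 CPM, and overlapped in C4-2B. In 22Rv1 the sum of the 10 was higher with MG63 cells, at 52.7 to 54.3 CPM against 36.2 to 38.8 CPM. The source of these differences was not tested. The summed macrophage markers lay between 10.0 and 51.6 CPM with RAW264.7 cells and between 9.67 and 55.2 CPM with RANKL alone. The DU145 libraries from MG63 co-culture stood apart from each other, with r = 0.959 across genes, so values for them are given per library where a named gene rests on them. DU145 cells also differed between the sets with and without RANKL: the epithelial marker EPCAM stood at no more than 21.6 CPM in the 5 libraries without RANKL and between 79.4 and 89.9 CPM in the 4 with it, and the part of this shift in RANKL comparisons of DU145 was not tested.

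The promoter stretches below are shown because TNF and IL1RN start behind them. With MG63 cells both were higher in both BPCa lines than in mono-cultures without RANKL, and of the pair TNF alone passed the test against RANKL mono-cultures. They come from RefSeq promoter windows (GRCh38.p14, plus strand, 5′ to 3′). The TNF and downstream IL1RN stretches end just before the RefSeq start of their window, and the upstream IL1RN stretch was ended earlier, just before the first GENCODE 29 transcript there. Capitals mark TATAAA, the core of a TATA box, and a match to TGANTCA, the core letters of an AP-1 site.
TNF, chr6:31575315-31575564: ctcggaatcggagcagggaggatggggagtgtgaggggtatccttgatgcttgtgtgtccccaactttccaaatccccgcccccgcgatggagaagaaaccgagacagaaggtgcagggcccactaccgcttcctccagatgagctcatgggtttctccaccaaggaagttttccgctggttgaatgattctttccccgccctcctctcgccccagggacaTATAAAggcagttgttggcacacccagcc
IL1RN upstream start, chr2:113117721-113117892: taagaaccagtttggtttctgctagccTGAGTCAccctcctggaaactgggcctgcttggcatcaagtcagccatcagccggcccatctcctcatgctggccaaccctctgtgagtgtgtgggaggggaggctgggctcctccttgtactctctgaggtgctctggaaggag
IL1RN downstream start, chr2:113127239-113127488: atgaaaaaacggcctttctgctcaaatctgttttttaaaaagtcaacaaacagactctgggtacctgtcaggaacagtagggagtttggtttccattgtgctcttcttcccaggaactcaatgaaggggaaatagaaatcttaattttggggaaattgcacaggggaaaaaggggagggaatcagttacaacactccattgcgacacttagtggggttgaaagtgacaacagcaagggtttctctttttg
The motifs were searched on both strands of 300-base windows around RefSeq starts. Of 17 such windows for the 10 genes, TATAAA was in 5 (IL1A, IL1R1, IL1R2, IL1RN and TNF), TGANTCA in 3 (IL1A and IL1RN), and the NF-κB consensus in none. Among all 35116 windows the shares were 11.5%, 7.71% and 5.91%. A match is a description of letters, and the absence of a match speaks only of these windows.

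TNF (chr6:31575567-31578336, plus strand) encodes the ligand TNF-α and was nearly silent in mono-culture. C4-2 mono-cultures held 1.02, 0 and 4.08 counts, and C4-2B mono-cultures held 5.14, 2.99 and 2.03 counts. Beside MG63 cells, C4-2 held 26.3 and 30.3 counts in shallower libraries, and C4-2B held 27.4 and 26.6 counts. As levels, the C4-2 co-cultures stood at 1.86 and 1.97 CPM and the C4-2B co-cultures at 1.96 and 1.94 CPM. The 4 BPCa libraries from MG63 co-culture lay above every other library, since the other 32 reached at most 0.418 CPM. In bulk RNA, a few cells with much TNF and many cells with little cannot be told apart.

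No TNF value reached the minimum of 100 counts in any library, so the gene was tested in a fit of all genes without that minimum. The log2 fold change with MG63 cells was 5.11 (SE 0.99, adjusted p = 0.00447, edgeR quasi-likelihood test) in C4-2 and 4.27 (SE 0.92, adjusted p = 0.0136) in C4-2B. The mean of the C4-2 co-cultures was 17.7 times the level that 3 counts give in the shallowest C4-2 mono-culture, and that of the C4-2B co-cultures was 19.6 times its own such level. In this fit 4.42% of all genes were called in C4-2 and 3.08% in C4-2B. Over both BPCa lines the log2 fold change was 4.69 (SE 0.68, adjusted p = 0.000168), where 9.39% of genes were called, and it stayed called without any 1 BPCa library, at 4.44 to 5.42. In C4-2 alone it was called in each of 5 such fits, at 4.61 to 6.57, the highest without mono-culture replicate 3. In C4-2B alone the log2 fold change was 4.02 to 4.52, and the call was lost in 4 of 5 fits, with adjusted p up to 0.101.

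The RANKL mono-cultures are as shallow as the co-cultures and gave a further control for TNF. The MG63 co-cultures had no RANKL, so this contrast holds both the MG63 cells and RANKL, here and wherever this control is used. The RANKL mono-cultures held 1.25 and 1.26 counts in C4-2 and 1.23 and 2.46 counts in C4-2B. Against them the log2 fold change with MG63 cells was 4.40 (adjusted p = 0.0138) in C4-2 and 3.89 (adjusted p = 0.0286) in C4-2B, so TNF was higher in MG63 co-culture against either control. With this control 1.93% of all genes were called in C4-2 and 1.17% in C4-2B.

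In LPCa cells TNF was at or under 3 counts in 14 of 18 libraries. DU145 held 0, 0 and 1.11 counts in mono-culture and 2.13 and 1.26 counts with MG63 cells, and 22Rv1 held 10.5, 0 and 5.23 counts in mono-culture and 3.80 and 0.971 counts with MG63 cells. Among MG63 co-cultures, the TNF level was higher in BPCa than in LPCa by 3.74 on the log2 scale (SE 0.80, adjusted p = 7.45e-04), in a comparison that called 44.7% of all genes. The difference between the MG63 effects of the 2 kinds of line was 3.14 (SE 1.56, adjusted p = 0.313), which missed the threshold in a comparison that called 3.65% of genes. With RANKL and RAW264.7 cells TNF held 0 to 3.88 counts in the 8 libraries, so no level like that of the BPCa co-cultures with MG63 cells was seen, and a smaller response was not detectable at this depth.

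**Figure D1:**
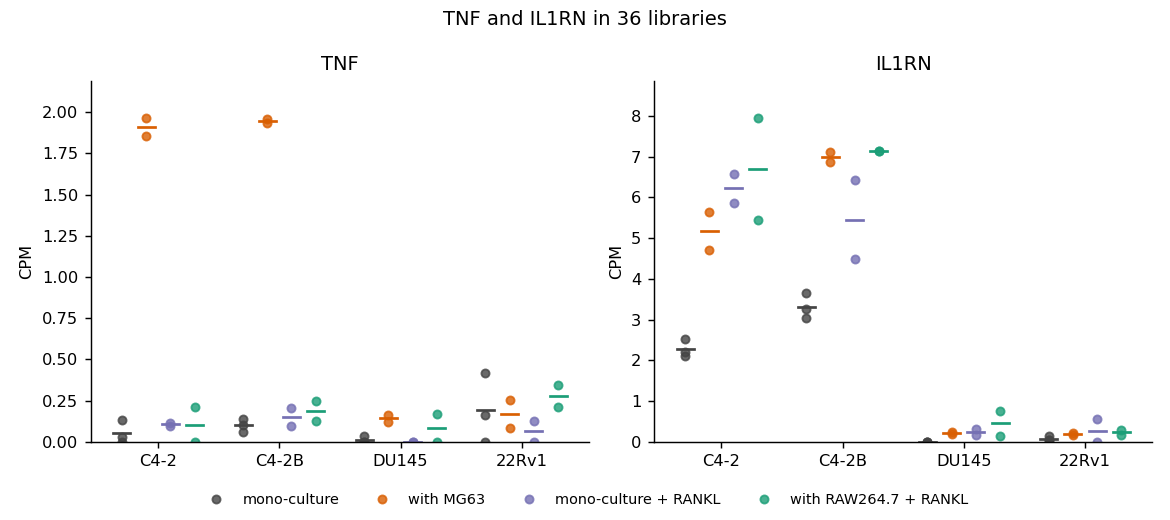
TNF (left) and IL1RN (right) in CPM for every library, by cell line and culture; points are libraries and lines are group means. TNF stands near 2 CPM in the 4 BPCa libraries from MG63 co-culture and at or below 0.418 CPM in the other 32, whereas IL1RN is near 0 in DU145 and 22Rv1 and, among BPCa cultures, lowest in mono-cultures without RANKL.

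IL1A (chr2:112773915-112784590, minus strand) and IL1B (chr2:112829751-112836903, minus strand), the IL-1 ligands, lie next to each other and were close to silent throughout. IL1A reached at most 7.16 counts in 1 library and at most 0.289 CPM in another, with 29 of 36 libraries at or under 3 counts. IL1B reached at most 16.7 counts, in a 22Rv1 mono-culture, and 0.803 CPM, with 19 of 36 libraries at or under 3 counts. Without the minimum, IL1B was called higher in DU145 with MG63 cells (adjusted p = 0.0235), on 3.07 and 4.89 counts against at most 1.13 counts in mono-culture, so no fold is given. Among these 3 ligands only TNF exceeded 1 CPM in any group mean.

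IL1RN (chr2:113107214-113134016, plus strand), the receptor antagonist, separated the lines in every culture. C4-2 mono-cultures held 2.19, 2.11 and 2.52 CPM and C4-2B mono-cultures 3.65, 3.25 and 3.05 CPM. DU145 mono-cultures held 0 counts in all 3 libraries, and 22Rv1 mono-cultures held 0.986, 0.992 and 4.42 counts. Across all cultures the 18 BPCa libraries held 58.6 to 134 counts and the 18 LPCa libraries at most 9.70 counts, without overlap. C4-2 exceeded 22Rv1 by 4.91 on the log2 scale (SE 0.31, adjusted p = 2.66e-09) and C4-2B did by 5.49 (SE 0.30, adjusted p = 5.45e-10), while the difference of -0.58 between C4-2 and C4-2B missed the threshold (SE 0.19, adjusted p = 0.0577). These comparisons called 72.0%, 72.5% and 13.6% of all genes.

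With MG63 cells IL1RN stood at 5.64 and 4.71 CPM in C4-2 and at 7.12 and 6.86 CPM in C4-2B, above every mono-culture of the same line. It rose by 1.28 on the log2 scale in C4-2 (SE 0.21, adjusted p = 0.00154) and by 1.14 in C4-2B (SE 0.21, adjusted p = 0.00430), in comparisons that called 10.1% and 7.41% of the 13437 genes tested. The C4-2B call was lost without MG63 replicate 1 (1.1, adjusted p = 0.0554). IL1RN was also above the mono-cultures without RANKL in those with it, at 5.87 and 6.59 CPM in C4-2, above both MG63 co-cultures, and at 4.49 and 6.42 CPM in C4-2B, below both. Against these, the log2 difference with MG63 cells was -0.26 in C4-2 (adjusted p = 0.841) and 0.33 in C4-2B (adjusted p = 0.803), where 4.7% and 3.03% of genes were called. The deeper mono-cultures without RANKL were thus the low group, and depth moved with IL1RN across cultures; its part in the result was not tested.

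**Figure D2:**
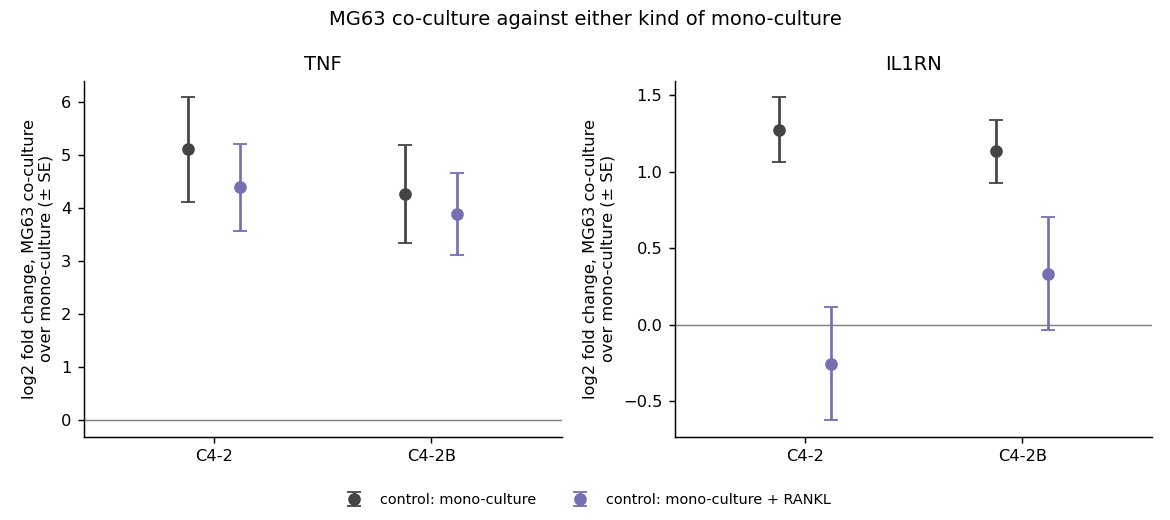
Log2 fold change of MG63 co-culture over mono-culture (± SE) for TNF (left, fit without a count minimum) and IL1RN (right), with mono-cultures without RANKL (dark) or with RANKL (purple) as the control. TNF is 3.89 or more above either control, whereas IL1RN is 1.14 to 1.28 above the first and -0.26 to 0.33 from the second.

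IL1RN is known to start at 2 places: products of the upstream start stay in the cell, and the product of the downstream start is secreted. In the 18 BPCa libraries 76.8% of IL1RN counts fell on IL1RN-202, 12.5% on IL1RN-203 and 5.64% on IL1RN-201, all of which begin between 113117893 and 113117897, right behind the upstream stretch shown above. IL1RN-205, which begins downstream at 113127561, took 2.67%, or 41.3 counts in all, and exceeded 3 counts in 4 of the 18 libraries. These are estimated counts, since the transcripts share most of their sequence.

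IL1R1 (chr2:102064544-102179874, plus strand), the signaling receptor for IL-1, was present in all 4 lines. The mono-culture means were 15.2 ± 0.74 CPM in C4-2, 10.5 ± 1.62 CPM in C4-2B, 7.46 ± 1.69 CPM in 22Rv1 and 3.94 ± 0.77 CPM in DU145 (SD, n = 3). In that order the libraries of C4-2 and C4-2B did not overlap, but the log2 difference of 0.49 missed the threshold (SE 0.18, adjusted p = 0.0878), and each of the other 5 line pairs differed. Of all genes tested, 13.6% were called between C4-2 and C4-2B and 72.0% to 79.6% between the other pairs. Beside MG63 cells, C4-2 held 13.3 and 8.58 CPM and C4-2B held 6.77 and 7.33 CPM, all below the mono-cultures of the same line. The log2 fold change over both BPCa lines was -0.44 (SE 0.15, adjusted p = 0.0581), in a comparison that called 19.6% of genes. It missed the threshold but passed with library size in place of TMM scaling (-0.52, adjusted p = 0.0241). That scaling moved the median of all genes by -0.085, about as much as it moved IL1R1.

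IL1R1 moved in opposite directions in the LPCa lines with RANKL. In DU145 it stood at 4.35, 3.05 and 4.41 CPM in mono-culture and at 9.19 and 6.49 CPM with RANKL, a rise of 1.1 on the log2 scale (SE 0.26, adjusted p = 0.00169). The groups do not overlap, but without RANKL replicate 1 the call was lost (0.80, adjusted p = 0.0929). Per transcript length, on a scale summing to 1000000 per library, they do overlap, at 2.43, 1.48 and 3.20 in mono-culture and 2.56 and 2.29 with RANKL. In 22Rv1 it stood at 8.55, 8.31 and 5.51 CPM in mono-culture and at 2.82 and 0.818 CPM with RANKL, and fell by 2.04 (SE 0.34, adjusted p = 1.29e-04). The lower 22Rv1 library rests on 9.02 counts, and the log2 fold change was -1.38 without it and -3.15 without RANKL replicate 1, called both times (adjusted p at most 0.0205). RANKL comparisons are between shallower and deeper libraries and called 32.5% of genes in DU145 and 17.7% in 22Rv1.

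IL1RAP (chr3:190514051-190659750, plus strand), the co-receptor of IL1R1, was highest in DU145. Mono-cultures of DU145 held 24.9, 26.4 and 25.9 CPM, and means elsewhere were 9.46 ± 0.82 CPM in C4-2, 7.47 ± 0.87 CPM in C4-2B and 7.05 ± 0.17 CPM in 22Rv1 (SD, n = 3). DU145 exceeded each of the other lines, by 1.41 to 1.88 on the log2 scale (largest adjusted p = 4.09e-07), where 78.3% (C4-2), 79.0% (C4-2B) and 79.6% (22Rv1) of all genes differed from DU145. The libraries of C4-2 and C4-2B did not overlap, but their log2 difference of 0.29 missed the threshold (SE 0.16, adjusted p = 0.293). C4-2B and 22Rv1 overlapped (0.18, adjusted p = 0.351).

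The IL1RAP counts of 22Rv1 fell largely on a short transcript. IL1RAP-216 (chr3:190514096-190519030), annotated as a processed transcript without a coding sequence, took 72.0% to 86.0% of IL1RAP counts in 22Rv1 mono-cultures, against 7.57% to 14.5% in DU145, 27.7% to 32.1% in C4-2 and 30.5% to 38.9% in C4-2B. Counts on protein-coding transcripts were 1.13 ± 0.23 CPM in 22Rv1, 22.1 ± 1.84 CPM in DU145, 4.91 ± 0.46 CPM in C4-2B and 6.55 ± 0.27 CPM in C4-2 (SD, n = 3). In all 9 libraries of 22Rv1 they lay between 0.785 and 1.39 CPM, below every library of the other lines, of which the lowest was at 3.97 CPM. The gene total therefore placed 22Rv1 beside C4-2B, and the coding part placed it lowest. Per transcript length, which gives more weight to a short transcript, the gene total was 9.75 ± 0.40 in 22Rv1, above C4-2 (6.73 ± 1.29) and C4-2B (5.78 ± 0.80) and below DU145 (12.1 ± 0.86; SD, n = 3).

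**Figure D3:**
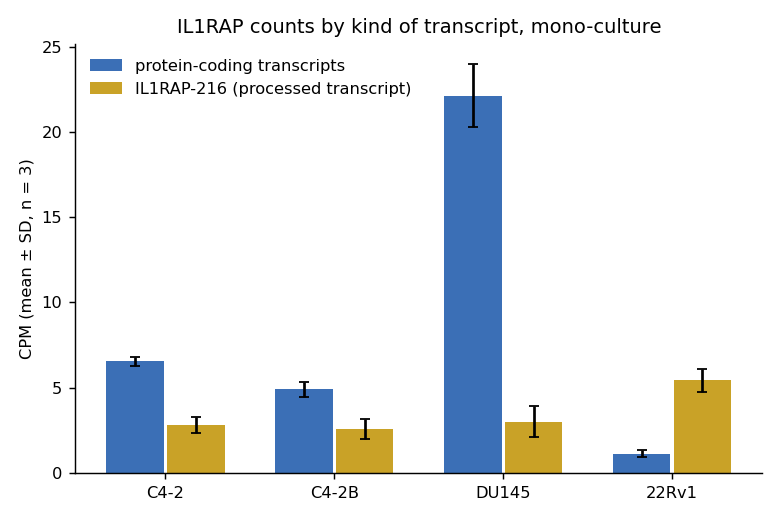
IL1RAP in mono-culture, in CPM (mean ± SD, n = 3), on protein-coding transcripts (blue) and on the processed transcript IL1RAP-216 (yellow), by cell line. In 22Rv1 the coding bar is at 1.13 CPM, and in DU145 it is at 22.1 CPM.

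With MG63 cells IL1RAP was called in no line. In DU145 the co-cultures disagreed, at 25.2 and 13.0 CPM, and without replicate 1 the gene was called lower there. With RANKL it fell in DU145 by 0.80 on the log2 scale (SE 0.17, adjusted p = 8.80e-04), to 12.5 and 15.1 CPM, below all 3 mono-cultures.

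IL1R2 (chr2:101991844-102028544, plus strand), the decoy receptor, was a feature of 22Rv1. Its mono-cultures held 2.39, 2.98 and 3.34 CPM (60.0 to 108 counts), whereas the 27 libraries of the other lines held at most 7.94 counts, and 24 of them at most 3. Of all genes tested, 72.0% (C4-2), 72.5% (C4-2B) and 79.6% (DU145) differed from 22Rv1 in mono-culture. With MG63 cells 22Rv1 held 4.57 and 5.01 CPM, above every mono-culture, but the log2 fold change of 0.82 did not pass (SE 0.48, adjusted p = 0.260). With RANKL it held 1.56 and 1.38 CPM, and with RANKL and RAW264.7 cells 2.03 and 1.82 CPM. A call for IL1R2 over both LPCa lines with MG63 cells (2.76, adjusted p = 0.0494, in a comparison that called 35.1% of genes) and a call in DU145 with RANKL (5.20, adjusted p = 0.0150) rest in DU145 on at most 2.72 counts against 0, so neither is read as a change.

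TNFRSF1A (chr12:6328757-6342114, minus strand), the main receptor for TNF, was well expressed in every line. DU145 mono-cultures held 199, 214 and 215 CPM, those of 22Rv1 58.9, 60.1 and 62.8 CPM, those of C4-2B 48.4, 46.4 and 48.0 CPM, and those of C4-2 47.1, 47.0 and 47.2 CPM. DU145 exceeded C4-2 by 2.12 on the log2 scale (SE 0.049, adjusted p = 8.79e-16) and 22Rv1 by 1.80 (SE 0.049, adjusted p = 6.05e-15), and 22Rv1 exceeded both BPCa lines (adjusted p at most 1.61e-04). C4-2 and C4-2B did not differ beyond their spread (-0.06, adjusted p = 0.503). Of all genes tested, 78.3% to 79.6% differed between DU145 and the other lines. The share was 72.0% to 72.5% between 22Rv1 and the BPCa lines, and 13.6% between C4-2 and C4-2B.

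TNFRSF1A rose slightly in BPCa cells with MG63 cells. C4-2 stood at 53.4 and 52.6 CPM, above every C4-2 mono-culture, and the log2 fold change was 0.28 (SE 0.055, adjusted p = 0.00364). C4-2B stood at 52.9 and 50.4 CPM, also above its mono-cultures, with a log2 fold change of 0.18 that did not pass (SE 0.055, adjusted p = 0.0589). Over both lines the change was 0.23 (SE 0.039, adjusted p = 5.80e-04), a fold of 1.17. In DU145 it was 0.07 (adjusted p = 0.339) and in 22Rv1 -0.05 (adjusted p = 0.604). Against RANKL mono-cultures the DU145 change was 0.34 (adjusted p = 0.0134). The effect in BPCa exceeded that in LPCa by 0.22 (SE 0.055, adjusted p = 0.0203), in a comparison that called 9.85% of all genes, and the call was lost without C4-2B MG63 replicate 1 (0.20, adjusted p = 0.0588), without 22Rv1 MG63 replicate 2 (0.20, adjusted p = 0.0586), with edgeR's filterByExpr (0.18, adjusted p = 0.0811) and with the RANKL mono-cultures as control (0.23, adjusted p = 0.119). Scaling by library size in place of TMM moved the median of all genes by -0.11 in C4-2, and TNFRSF1A there by about as much, to 0.17 (adjusted p = 0.0528). With RANKL, TNFRSF1A fell in DU145 by 0.25 (SE 0.058, adjusted p = 0.00187), to 166 and 163 CPM.

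TNFRSF1B (chr1:12167003-12209228, plus strand), the second TNF receptor, was a feature of DU145. Its mono-cultures held 1.81, 2.24 and 2.51 CPM (61.7 to 78.8 counts), and the 27 libraries of the other lines held at most 8.19 counts. Of all genes tested, 78.3% (C4-2), 79.0% (C4-2B) and 79.6% (22Rv1) differed from DU145 in mono-culture. With MG63 cells DU145 held 4.47 and 4.62 CPM, above its mono-cultures and above the 3.15 and 2.52 CPM of its RANKL mono-cultures. In the fit without a minimum the log2 fold change was 1.07 (SE 0.35, adjusted p = 0.0489), where 15.3% of genes were called. Without 1 DU145 library at a time it was 1.05 to 1.26, and the call was lost in each of the 5 fits (adjusted p up to 0.204) and against the RANKL mono-cultures (0.67, adjusted p = 0.603).

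**Figure D4:**
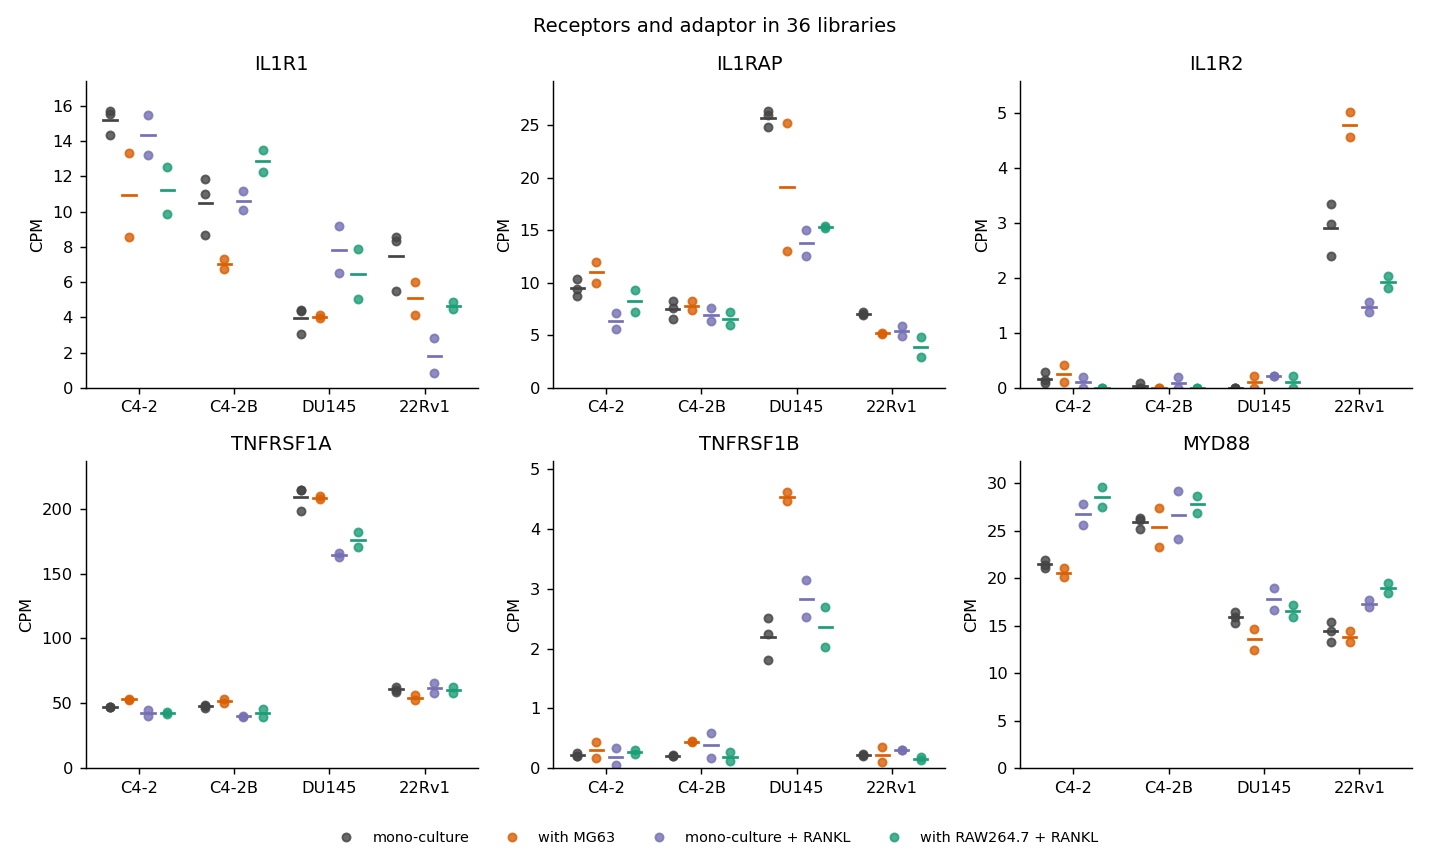
The 5 receptors and the adaptor MYD88 in CPM for every library, by cell line and culture; points are libraries and lines are group means. IL1R2 is above 1 CPM in 22Rv1 alone and TNFRSF1B in DU145 alone, and TNFRSF1A in DU145 is at 163 CPM or more, against at most 65.8 CPM elsewhere.

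MYD88 (chr3:38138478-38143022, plus strand), the adaptor behind IL1R1, was expressed in every line. The mono-culture means were 25.9 ± 0.64 CPM in C4-2B, 21.5 ± 0.40 CPM in C4-2, 15.9 ± 0.58 CPM in DU145 and 14.4 ± 1.05 CPM in 22Rv1 (SD, n = 3). C4-2B exceeded C4-2 by 0.31 on the log2 scale (SE 0.072, adjusted p = 0.00688), and the difference between DU145 and 22Rv1 missed the threshold (0.16, adjusted p = 0.0561). These comparisons called 13.6% and 79.6% of all genes. With MG63 cells no line passed: the log2 fold changes were 0.05 in C4-2, 0.03 in C4-2B, -0.16 in DU145 (12.5 and 14.7 CPM) and 0.06 in 22Rv1, with 95% intervals that lay between -0.34 and 0.23. With RANKL it rose in C4-2 by 0.40 (SE 0.089, adjusted p = 0.00245), in DU145 by 0.27 (adjusted p = 0.0299) and in 22Rv1 by 0.30 (adjusted p = 0.0350). Leaving out 1 library ended the C4-2 call in 1 of 5 fits (RANKL replicate 2), the DU145 call in 3 of 5 and the 22Rv1 call in 4 of 5. The log2 fold change was then 0.34 to 0.46 in C4-2, 0.15 to 0.37 in DU145 and 0.25 to 0.35 in 22Rv1.

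Of the 10 genes, 6 reached 100 counts in at least 1 of the 20 libraries without RANKL, and 5 did so among the 16 with RANKL. With MG63 cells 2 of the 6 were called in C4-2 (IL1RN and TNFRSF1A, both higher) and 1 in C4-2B (IL1RN), where 10.1% and 7.41% of all genes were called. None was called by edgeR or DESeq2 in 22Rv1, where 20.4% of all genes were called and 0 of the 6 had an unadjusted p under 0.05, and 1 was called in DU145, where 30.5% of all genes were. That DU145 call was IL1RN, on 3.06 and 1.95 counts against 0. IL1RN also differed between BPCa and LPCa in its MG63 effect (-2.19, SE 0.51, adjusted p = 0.0439), which is set by these DU145 and 22Rv1 counts at or near the floor. With RAW264.7 cells none of the 20 pairs of gene and line was called by edgeR or DESeq2, and 1 had an unadjusted p under 0.05 (IL1R1 in 22Rv1, 1.43 on the log2 scale, adjusted p = 0.616). The shares of all genes called there were 0.0174% in C4-2, 0.139% in C4-2B, 0.026% in DU145 and 0.00868% in 22Rv1. With RANKL in mono-culture 10 of 24 pairs were called, of which IL1RN and IL1R2 in DU145 rest on at most 4.07 counts. The shares of all genes called with RANKL were 18.3% in C4-2, 14.4% in C4-2B, 32.5% in DU145 and 17.7% in 22Rv1. Between lines in mono-culture 28 of 36 differences were called, where 13.6% of genes differed between C4-2 and C4-2B and 72.0% to 79.6% between the other pairs. This tally includes IL1R2 and IL1RN, which reached 100 counts only in 22Rv1 and only in C4-2B. It also holds calls at or near the floor that are not read as differences: IL1R2 between C4-2 and DU145 rests on at most 7.94 counts against 0, and IL1RN between DU145 and 22Rv1 on 0 against at most 4.42 counts.

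Of 22 genes known to be induced by IL-1 and TNF, a list chosen with earlier results known, 17 were tested with MG63 cells. In C4-2 10 were higher, in C4-2B 9, in DU145 16 and in 22Rv1 4, and none was lower in any line. Of the 17, 3 (CSF2, LCN2 and SAA2) reached 100 counts only in MG63 co-cultures, so their calls follow in part from the minimum. Of all genes tested, 5.3%, 3.52%, 15.2% and 11.2% were called higher in the same order. The median log2 fold changes of the 17 were 0.91, 1.16, 1.70 and 0.57 in the same order, against medians of all genes from -0.06 to 0.00. Against the RANKL mono-cultures 9, 8, 16 and 0 were higher, where 2.25%, 1.8%, 11.6% and 3.87% of all genes were, so the calls in 22Rv1 did not hold with that control. With no minimum, 11, 10, 17 and 2 of all 22 were higher and none lower, where 2.23%, 1.36%, 6.23% and 4.13% of all genes were higher. In DU145 15 were higher without MG63 replicate 1 and 16 without MG63 replicate 2. With RAW264.7 cells none of the 11 tested was called by edgeR in any line, and 1 in C4-2 and 1 in C4-2B had an unadjusted p under 0.05.

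SAA1, an acute phase protein of the list, had 0 counts in all 6 BPCa mono-cultures and stood at 19.7 and 18.4 CPM with MG63 cells in C4-2 and at 8.55 and 9.43 CPM in C4-2B. SAA2, its close paralog, between which shared reads may be split, rose in C4-2 by 6.16 on the log2 scale (SE 0.33, adjusted p = 2.23e-08). SAA2 entered this fit only through MG63 co-cultures, so its call and p-value follow in part from the minimum. In 22Rv1 SAA1 stayed at or under 2.95 counts. In DU145, the other LPCa line, it was higher with MG63 cells whichever co-culture was left out. CXCL8, a neutrophil chemokine, rose in DU145 by 3.01 (SE 0.13, adjusted p = 1.67e-09), from 18.3 to 20.9 CPM in mono-culture to 133 and 175 CPM. ICAM1, an adhesion molecule, rose in C4-2 by 1.61 (SE 0.11, adjusted p = 2.35e-07), from 7.32 to 8.04 CPM to 21.1 and 22.1 CPM. The MG63 effect was larger in BPCa for 5 genes of the list (CCL20, SAA1, SAA2, CXCL8 and ICAM1) and smaller for 2 (C3 and TNIP1), with the edgeR test of the difference, which called 9.85% of all genes. For SAA1 this is set by the 0 counts of the BPCa mono-cultures, and SAA2 passed the minimum only in MG63 co-cultures. Neither difference is read as one of size. With RANKL mono-cultures as control it was larger for 4 and smaller for 1.

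**Figure D5:**
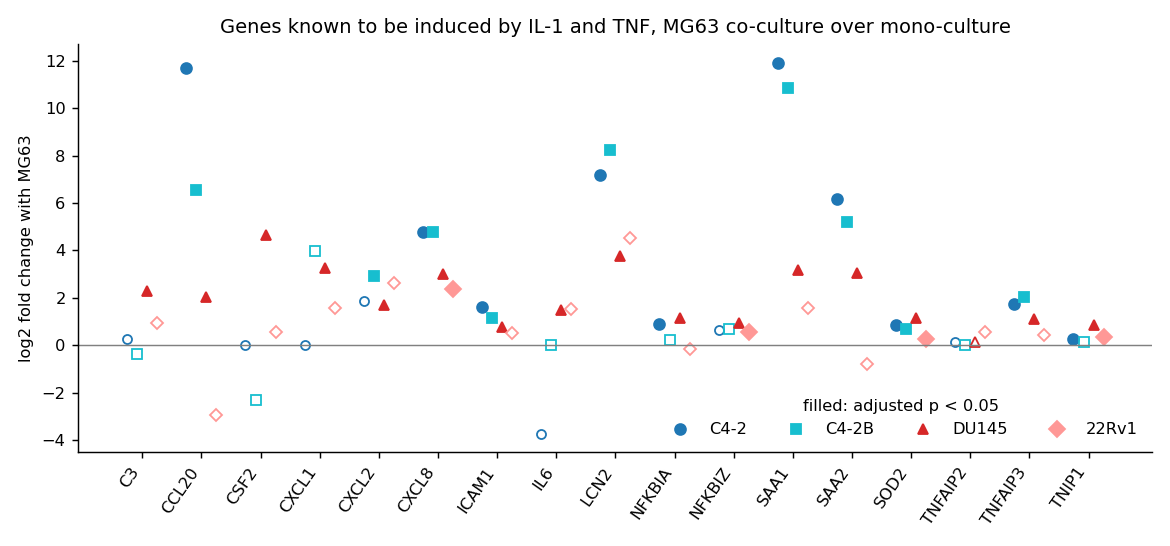
Log2 fold change with MG63 cells over mono-culture for the 17 tested genes known to be induced by IL-1 and TNF, in 4 cell lines; filled symbols passed an adjusted p of 0.05. Filled symbols number 10 in C4-2, 9 in C4-2B, 16 in DU145 and 4 in 22Rv1, all above 0; the tallest values, such as SAA1 in C4-2 and C4-2B, are against mono-cultures with 0 counts and give no size of change.

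Among 18 genes of TNF signal transduction, 17 were tested. BIRC3, an inhibitor of apoptosis bound to the TNF receptor complex, rose by 2.44 on the log2 scale in C4-2 beside MG63 cells (SE 0.24, adjusted p = 7.61e-06), and CASP8, a caspase of the death receptor pathway, was the other call there. BIRC3 was also the single call in C4-2B, and the calls were 2 of 17 and 1 of 17 in comparisons that called 10.1% and 7.41% of all genes. In DU145, where 30.5% of all genes were called, 6 were higher and 1 lower, and 1 of the 6 (LTB) reached 100 counts only in MG63 co-cultures. TRAF2, an adaptor of TNF receptors, rose there by 0.75, with co-cultures at 68.2 and 113 CPM against 52.4 to 60.9 CPM. LTBR, the lymphotoxin receptor, rose by 0.64, with co-cultures at 167 and 329 CPM against 159 to 171 CPM, so that 1 of them lay within the mono-cultures. The kinase RIPK1 fell by 0.44, with co-cultures at 14.3 and 16.2 CPM against 21.8 ± 1.61 CPM (SD, n = 3). In 22Rv1, where 20.4% of all genes were called, 1 was higher (FADD) and 2 were lower (TRAF5 and BIRC2), and none of these 3 calls held against the RANKL mono-cultures. In DU145 the counts without MG63 replicate 1 were 9 higher and 1 lower, and without MG63 replicate 2 they were 2 higher and 3 lower of 16 tested, so they turn on these libraries.

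Among 12 genes of IL-1 signal transduction, 11 were tested, of which 1 was called in C4-2, 1 in C4-2B, 2 in DU145 and 2 in 22Rv1, where 10.1%, 7.41%, 30.5% and 20.4% of all genes were. IRAK2, a kinase downstream of MYD88, was the single call in each BPCa line and rose by 1.15 in C4-2B (SE 0.23, adjusted p = 0.00609), from at most 1.68 CPM to 2.72 and 3.41 CPM. Against RANKL mono-cultures no gene of the list was called by edgeR in either BPCa line. IRAK1, a kinase of the receptor complex, rose in DU145 by 0.49, with co-cultures at 50.9 and 73.8 CPM against 43.6 to 52.0 CPM. TAB1, a partner of the kinase TAK1, rose there by 0.31, with co-cultures at 21.4 and 25.1 CPM against 18.4 to 20.8 CPM. IRAK4 fell in 22Rv1 by 0.36, while TAB1 was higher there. Against RANKL mono-cultures no gene of the list was called there either. In DU145 the calls turn on the MG63 libraries, with 2 higher and 4 lower without replicate 1 and none without replicate 2.

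Among 12 genes for processing and shedding of these cytokines, 7 were tested and 1 was called in each line, where 10.1% (C4-2), 7.41% (C4-2B), 30.5% (DU145) and 20.4% (22Rv1) of all genes were. CASP4, an inflammatory caspase, was the single call in both BPCa lines and rose in C4-2 by 1.02 (SE 0.13, adjusted p = 9.39e-05), from 11.1 ± 0.97 CPM in mono-culture (SD, n = 3) to 19.6 and 22.0 CPM. GSDMD, the pore protein that lets IL-1β out, was called in DU145 (1.29, adjusted p = 0.0123), but its co-cultures held 65.9 and 300 CPM against 75.5 to 79.6 CPM in mono-culture, so 1 library sets it. RHBDF1 was higher in 22Rv1, by 0.31 (adjusted p = 0.0170), a call that did not hold against the RANKL mono-cultures. Of 15 other genes of the IL-1 family 3 were tested: SIGIRR, a receptor that dampens IL-1 signals, rose in 22Rv1 by 0.70 (SE 0.091, adjusted p = 6.08e-05) and was also called higher in C4-2 and C4-2B, and IL18BP, which binds IL-18, fell in DU145 by 0.53 (adjusted p = 0.0256). Its DU145 co-cultures held 8.40 and 15.1 CPM against 17.2 to 19.2 CPM in mono-culture, and the call was lost without MG63 replicate 2. Against RANKL mono-cultures neither SIGIRR nor IL18BP was called by edgeR in any of these lines.

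Patterns over the 16 group means were compared as Pearson's r of log2(CPM + 0.5), which is a description, since groups of a line share its genotype and groups of a culture share depth. The genes most like TNF were SERPINA3 (r = 0.94), SHROOM1 (0.91) and LCN2 (0.80). The TNF mean exceeded the added 0.5 CPM only in C4-2 (1.91 CPM) and C4-2B (1.95 CPM) with MG63 cells. Its r thus rests mainly on these groups of related lines. The genes most like IL1RN were LSM10, SLC30A4 and HPR (0.98 each). TNFRSF1A was most like TGFBR2, DLX4 and MFF (0.99 each), and TNFRSF1B was most like S100A3, CXCL2 and AKR1B1 (0.99 each). For IL1R2 they were EPHA7, AMER3 and LGR5 (0.98 each), and for IL1RAP they were PTP4A2, COL18A1 and TIAL1 (0.96 each). For IL1R1 the highest were ADO (0.89), SRFBP1 (0.88) and OLFM1 (0.87), and for MYD88 they included BARD1 and LSM10 (0.95 each).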

How the data were processed

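The authors prepared strand-specific poly-A libraries and counted reads per transcript with kallisto, and the estimated counts they deposited were used here. The submitters' processing notes name FastQC, kallisto and hg19, and the settings of the transcript index are not given in the sources used here. Transcript IDs were matched to names, lengths and positions in GENCODE 29 (GRCh38), and 95.4% of the 159837 transcripts had a length. Lines that repeated a transcript were used once, counts were summed per symbol, and transcripts without a symbol (0.526% to 0.764% of counts) stayed out. Sums were rounded for testing.

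The 10 genes and all gene lists were chosen with earlier results of these data known. Genes that reached 100 counts in 1 or more libraries were tested with edgeR 4.0.16 (R 4.3.3; TMM scaling, quasi-likelihood F test, Benjamini-Hochberg adjustment over all genes, threshold 0.05): 13437 genes in the 20 libraries without RANKL for MG63 cells and lines, 11525 in the 16 with RANKL for RAW264.7 cells, and 13454 in all 36 for RANKL against none. Genes under the minimum were tested in the same fits over all genes with any count. SE is the absolute log2 fold change divided by the square root of F. Nothing in the labels says that replicates came from separate experiments, so p-values measure only the spread between these libraries, which may be technical. No 2 libraries agreed within counting noise. From each list the text names up to 4 genes with the smallest adjusted p with MG63 cells, and all called genes where 5 or fewer were called. Likeness was taken over 16 group means of log2(CPM + 0.5). Some genes are not reported here.

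Alternatives were DESeq2 1.42.0, edgeR's filterByExpr, no minimum, library-size scaling, all 36 libraries in the MG63 fit, a replicate block, RANKL mono-cultures as control, a rule of fold above 2 with unadjusted p under 0.05, each library left out, and levels per length. On counts simulated for the C4-2 comparison (13462 genes), edgeR recovered 97 of 100 genes changed 2-fold and 100 of 100 changed 4-fold, and called 14 unchanged genes. The changed genes were drawn only from genes better counted in C4-2 mono-cultures than IL1RN and TNF are. Recovery of genes as low as these was therefore not simulated.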

Additional observations from a re-analysis of the deposited data

Results flagged for a closer look

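IL1RN was singled out because its MG63 effect differed between BPCa and LPCa by -2.19 on the log2 scale (adjusted p = 0.0439, edgeR), with LPCa libraries at or near 3 counts. TNFRSF1A was singled out because its MG63 effect was 0.22 larger in BPCa than in LPCa (adjusted p = 0.0203, edgeR). The other differences between lines were not tested as such. They were noted because every co-culture of a line lay on one side of all its mono-cultures and another line went the opposite way. For TNFRSF1A with MG63 cells the differences of means were 5.88 CPM in C4-2, 4.08 CPM in C4-2B and -6.25 CPM in 22Rv1. With TMM scaling the 22Rv1 groups overlapped, at 56.1 and 53.1 CPM in co-culture and 54.7, 55.9 and 59.4 CPM in mono-culture. For IL1R1 with RANKL they were 3.91 CPM in DU145 and -5.64 CPM in 22Rv1. For IL1R1 with RAW264.7 cells they were -3.16 CPM in C4-2, 2.25 CPM in C4-2B and 2.85 CPM in 22Rv1, and for IL1RAP they were 1.85 CPM in C4-2, 1.49 CPM in DU145 and -1.56 CPM in 22Rv1. None of the RAW264.7 differences passed the edgeR test within its line.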

How the results depend on the processing

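Of the comparisons over the 10 genes, the counts of calls moved as follows. With MG63 cells, the number called in C4-2 (2) was 1 with library-size scaling, with RANKL mono-cultures as control and with the fold rule. In C4-2B (1) it was 2 with filterByExpr, DESeq2 or no minimum and 0 with RANKL mono-cultures as control. In DU145 (1) it was 3 with filterByExpr, DESeq2 or no minimum and 2 with the fold rule. In 22Rv1 (0) it was 1 with RANKL mono-cultures as control. The number whose MG63 effect differed between BPCa and LPCa (2) was 0 with filterByExpr or RANKL mono-cultures as control and 1 with no minimum. The fold rule gave 1 call for RAW264.7 cells in place of 0, and 6 for RANKL in place of 10. The cause was not tested, other than that more genes are tested with no minimum.

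Leaving out 1 library at a time gave 2 to 2 calls in C4-2, 0 to 1 in C4-2B (0 without MG63 replicate 1), 1 to 2 in DU145 (2 without MG63 replicate 1), 0 to 0 in 22Rv1 and 0 to 3 for the difference between BPCa and LPCa, which moved in 14 of 20 such fits. It gave 7 to 11 calls for RANKL, 0 to 0 for RAW264.7 cells and 23 to 29 of 36 between lines.

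Directions reversed for IL1RN in C4-2 (-0.26) and IL1R1 in 22Rv1 (1.58, adjusted p = 0.0444) with RANKL mono-cultures as control, and for TNFRSF1A in DU145 with MG63 cells (-0.0025) with library-size scaling. Levels per transcript length put IL1RAP in DU145 at 1.80 times that in C4-2 and TNFRSF1A in DU145 at 2.81 times that in 22Rv1, and they raised IL1RAP in 22Rv1 above both BPCa lines. The RANKL controls and each library left out for genes under the minimum were chosen after seeing the data.

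With the replicate number as a block, the counts of calls with MG63 cells were 2, 1, 1 and 0 in C4-2, C4-2B, DU145 and 22Rv1, 9 in place of 10 for RANKL, and 28 between lines. MYD88 in 22Rv1 with RANKL (0.29, adjusted p = 0.0571) and TNFRSF1B in DU145 with MG63 cells (1.12, adjusted p = 0.0651) lost their calls. For same-numbered libraries the correlation of their deviations lay between -0.0714 and 0.0640 over 24 pairs. Deviations in groups of 2 libraries mirror each other, so these pairs are not all separate checks. Such small values do not exclude a shared experiment.

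Depth limits IL1A, IL1B, TNF and TNFRSF1B, where most libraries hold a few counts, and a change under about 3 counts was not detectable.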

Other observations

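The TNFRSF1A transcript TNFRSF1A-216 (chr12:6329145-6342004, annotated for nonsense-mediated decay) held 766 counts in DU145 MG63 replicate 2 and 0 in each of the other 35 libraries, while the TNFRSF1A totals of the DU145 co-cultures were 208 and 210 CPM.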
